A study of Mus musculus with 12 samples.

Results

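The effect of iron overload on the liver was followed in mice that had also received dexamethasone (DEX), a synthetic glucocorticoid (GC). The comparison used 6 of the 12 livers of the experiment, namely 3 mice given FeSO4 and then DEX (FeSO4/DEX) and 3 mice given NaCl and then DEX (NaCl/DEX). They were chosen by their labels and not by any measured value, and all 55414 genes of the count table entered. The animals were female C57BL/6J mice aged 8 to 12 weeks, for which the labels name no transgene or deletion. They received 300 mg/kg FeSO4 or 0.9% NaCl intraperitoneally, and 6 h later 10 mg/kg DEX. The livers were taken 2 h after DEX, which is 8 h after iron. Every mouse of the comparison thus carried the steroid, and iron preceded it. The mice received 1 dose of iron and livers were read at 1 time point, which limits the model to acute overload. The other 6 mice of the experiment received FeSO4 or NaCl and then PBS in place of DEX (FeSO4/PBS and NaCl/PBS, 3 mice each) and are not shared with the DEX comparison. They were used to test where the iron response with DEX departed from that without DEX.

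The liver stores iron in ferritin, releases it through ferroportin and makes hepcidin, the hormone that closes ferroportin. Free iron drives the formation of oxygen and lipid radicals, to which cells respond through transcription factors such as NRF2, ATF4 and AP-1. DEX acts through the glucocorticoid receptor (GR), which raises genes of sugar and amino acid metabolism in hepatocytes and lowers many inflammatory genes.

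Between 16742225 and 21726742 reads were counted on genes in the FeSO4/DEX livers and between 17886556 and 19909255 in the NaCl/DEX livers. In the DEX groups no 2 mice agreed within sampling noise (chi-square divided by the number of genes between 18.3 and 37.0), and each library entered as 1 mouse. Of 18 hepatocyte genes checked, 18 were detected, and Alb (albumin) did not pass the test, with a log2 fold change (LFC) of 0.20 (edgeR FDR 0.25). Among the PBS mice, NaCl/PBS mouse 2 had high levels of some inflammatory genes (Il1b 212 normalized counts against 36.0 and 29.6). FeSO4/PBS mouse 1 stood apart from its group, with values of 71.4 and 89.5 by the same measure, against 23.98 for the other pair. Normalized counts are counts scaled to a common library size. The p-values measure the spread between these mice, 3 in each group.

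FeSO4 changed the expression of a large share of the liver transcriptome in DEX mice. Of the 13857 genes with enough reads to be tested, 3103 had higher and 2902 had lower counts in FeSO4/DEX than in NaCl/DEX mice (22.4% and 20.9%, edgeR FDR up to 0.05). With an LFC beyond 1 in addition, 1474 genes were higher and 1362 lower (10.6% and 9.83%), and these are called differentially expressed genes (DEGs). The FeSO4/DEX mice did not overlap the NaCl/DEX mice in 2789 of the 2836 DEGs, while 55.9% of all tested genes did not overlap. The median LFC of all genes was 0.01, and -0.18 if only total reads were used for scaling, which moved the share of DEGs that were higher from 52.0% to 38.6%. Since RNA came from whole liver, fewer cells of a type and less RNA per cell cannot be told apart.

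Among the 12 genes with the largest rises in DEX mice were transcription factors of the immediate-early response, a chemokine, heme oxygenase and a lipid droplet protein. Genes entered this ranking and that of the falls only if no FeSO4/DEX mouse overlapped a NaCl/DEX mouse. Fosl1 (ENSMUSG00000024912, chromosome 19, 5497575 to 5505974) encodes the AP-1 subunit FRA1. Its normalized counts were 165, 185 and 149.8 in the 3 FeSO4/DEX mice, against 0, 0 and 0 reads in the NaCl/DEX mice. With no read in any control mouse only a lower bound can be given, and against a floor of 3 reads over the group Fosl1 was at least 165-fold higher. Exons of Fosl1 overlap those of Ccdc85b on the other strand. Cxcl2 (ENSMUSG00000058427, chromosome 5, 91051730 to 91053797), a chemokine that attracts neutrophils, had 111, 198 and 105 normalized counts with FeSO4 and 0, 0 and 0 reads without it, which makes it at least 133-fold higher. For Fosl1 and Cxcl2 alike every FeSO4/DEX mouse was far above controls that had no read.

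For 5 other genes of this group the NaCl/DEX mice had 1 to 3 reads in all, so that ratios come with a wide 95% exact interval that covers counting error only. Ccdc180 stood at 416, 799 and 635 normalized counts after FeSO4 and at 2, 0 and 0 reads in the controls, a ratio of 888 (245 to 7340). Hcar2, the receptor for niacin and hydroxybutyrate, reached 497, 379 and 380.5 normalized counts, with a ratio of 425 (145 to 2062). Npas2 (ENSMUSG00000026077, chromosome 1, 39232705 to 39402323), a partner of BMAL1 in the circadian clock, reached 128, 141 and 79.7, with a ratio of 347 (61.8 to 13741). Controls of these 3 genes were at or next to the detection limit while every FeSO4/DEX mouse was well above it. Garin1a had a ratio of 455 (81.3 to 18035) and D7Bwg0826e, whose exons overlap those of Fuz on the other strand, a ratio of 327 (58.3 to 12973).

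Hmox1 (ENSMUSG00000005413, chromosome 8, 75820241 to 75827217) encodes the heme oxygenase that breaks down heme to iron, biliverdin and carbon monoxide. It had 38248, 44259 and 33611 normalized counts in FeSO4/DEX mice and 388, 439 and 339 in NaCl/DEX mice. This gave an LFC of 6.64 (SE 0.27, edgeR FDR 8.0e-09), and the lowest iron-treated mouse stood far above the highest control. Efna1 (ENSMUSG00000027954, chromosome 3, 89179037 to 89188449), a membrane-bound ephrin ligand, had 3433, 6105 and 2785 normalized counts against 56.9, 63.0 and 38.3, an LFC of 6.28 (SE 0.38, edgeR FDR 6.4e-08). Arid5a, which encodes an RNA-binding protein that stabilizes inflammatory mRNAs, rose from 24.7, 28.2 and 39.3 to 2395, 2614 and 2009, an LFC of 6.24 (SE 0.30, edgeR FDR 1.8e-08). Each of these 3 genes held its groups apart with little spread among the controls. Hilpda, an inhibitor of lipid droplet lipolysis, had an LFC of 6.36 (edgeR FDR 2.5e-06). Fosb, another AP-1 subunit, had 312, 29.9 and 144 normalized counts in FeSO4/DEX mice and 1.07, 4.70 and 0 in NaCl/DEX mice, so that its mice differed widely within the iron group, and an LFC of 6.27 (SE 1.08, edgeR FDR 3.6e-04).

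The 12 largest falls held a bile acid enzyme, a clock gene, a chaperone and a gene that GCs raise. Greb1, an estrogen-regulated gene, had 0, 1 and 0 reads in FeSO4/DEX mice against 190.0, 58.3 and 62.4 normalized counts in NaCl/DEX mice, a ratio of 263 (46.8 to 10423) in favour of the controls. Cyp7a1 (ENSMUSG00000028240, chromosome 4, 6265612 to 6275633), the rate-limiting enzyme of bile acid synthesis, fell from 17870, 4804 and 7276 normalized counts to 241, 124 and 225, an LFC of -5.66 (SE 0.47, edgeR FDR 7.3e-07). Control mice differed among themselves by more than the iron mice did, yet no iron-treated mouse came near a control. Per3 (ENSMUSG00000028957, chromosome 4, 151081373 to 151129140), a repressor of the circadian clock, fell from 815, 406 and 529.6 to 19.3, 9.52 and 15.5, with an LFC of -5.25 (SE 0.42, edgeR FDR 5.2e-07). Fam107a (ENSMUSG00000021750, chromosome 14, 14151750 to 14173507), a GC-induced gene of an actin-binding protein, had 1150, 1156 and 948 normalized counts in NaCl/DEX mice and 24.2, 25.8 and 49.9 in FeSO4/DEX mice, an LFC of -5.03 (SE 0.30, edgeR FDR 5.1e-08). For both genes the groups lay far apart.

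Of the other falls in this ranking, Kcna2 (a potassium channel) had an LFC of -5.02, Serpina4-ps1 (a pseudogene, whose reads could be shared with related serpins) -5.13, and Mdm1 (a centriole protein) -4.27. Ms4a6c, a membrane protein of myeloid cells, had -3.93. Dact1 (a regulator of WNT signaling) had -3.76, B3galt1 (a galactosyltransferase) -3.62 and Celsr1 (an adhesion receptor of planar polarity) -3.55. The edgeR FDR of these 7 genes was at most 5.0e-04, which belonged to Serpina4-ps1. No iron-treated mouse overlapped a control in any of them, as the ranking required.

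**Figure D1:**
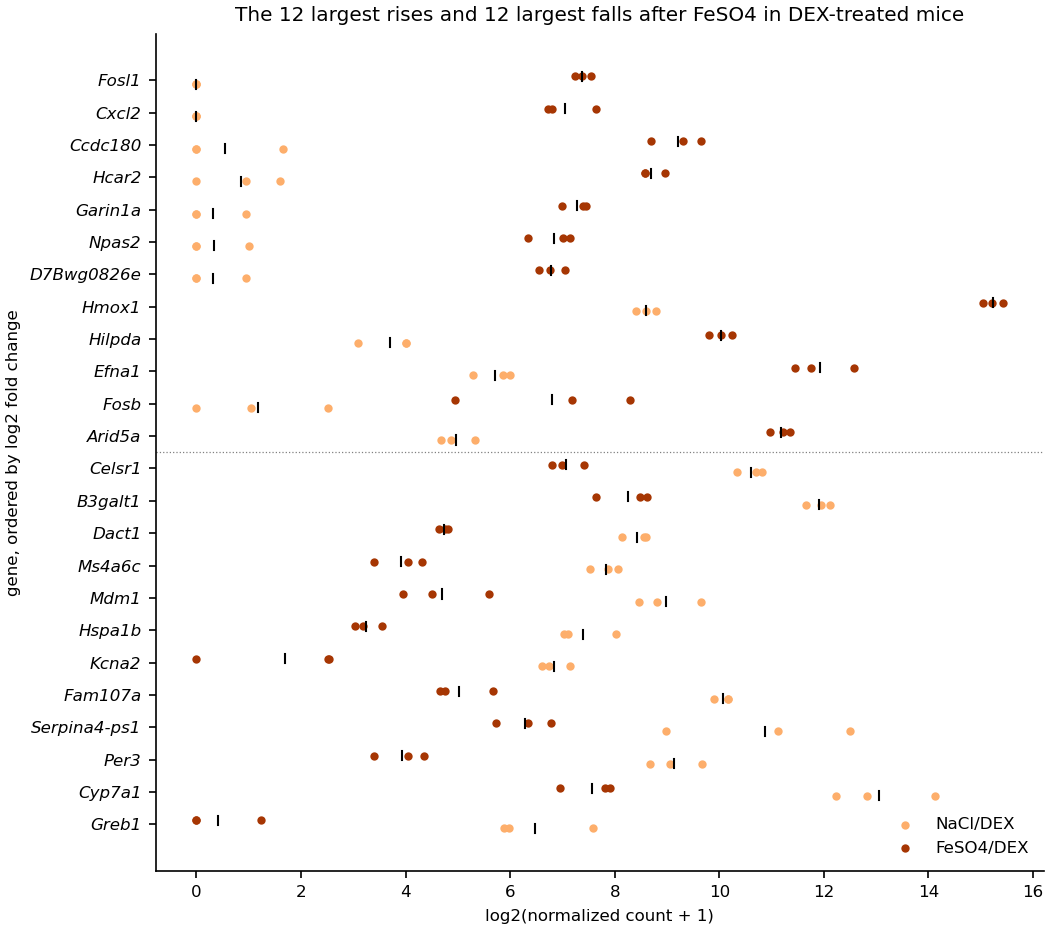
Normalized counts, as log2(count + 1) on the horizontal axis, of the 12 largest rises (above the dotted line) and 12 largest falls (below it) after FeSO4 in DEX mice. Points are single mice, 3 per group, and vertical ticks are group means. The groups do not overlap for any gene because the ranking required it. Fosl1 and Cxcl2 controls sit at 0, and Fosb and Serpina4-ps1 spread widely within a group.

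Of the 50 genes with the most reads in NaCl/DEX livers, 3 were DEGs, among them Fgg and Pck1. Of all tested genes 10.6% were DEGs that rose and 9.83% DEGs that fell, so DEGs were less frequent among these 50. Fgg, a chain of fibrinogen, rose with an LFC of 1.09 (edgeR FDR 3.6e-04). Pck1, an enzyme of gluconeogenesis, fell with an LFC of -2.73 (edgeR FDR 1.2e-04).

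The lists of genes below are to be read against the 22.4% of all genes that were higher and the 20.9% that were lower in FeSO4/DEX mice. Of 21 genes of iron storage and cellular uptake 5 were higher and 4 lower, shares close to those of all genes, with a median LFC of 0.05. Slc40a1, which encodes the iron exporter ferroportin, had 1048, 859 and 857 normalized counts in FeSO4/DEX mice and 3781, 4971 and 3978 in NaCl/DEX mice, an LFC of -2.20 (SE 0.14, edgeR FDR 9.2e-08). The groups did not overlap. Ferroportin is also made by Kupffer cells, the macrophages of the liver. The summed Kupffer cell markers were 8283, 5379 and 6260 in FeSO4/DEX and 10096, 11118 and 9706 in NaCl/DEX mice, and their part in the fall of Slc40a1 was not tested.

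Slc39a14, an importer of free iron and zinc, rose from 11438, 9112 and 10103 to 24136, 34429 and 26444 normalized counts, an LFC of 1.47 (SE 0.18, edgeR FDR 1.8e-05). The ferritin genes Fth1 and Ftl1 had LFCs of 1.06 (edgeR FDR 5.3e-04) and 0.94 (edgeR FDR 0.0027), and their reads could be shared with ferritin pseudogenes. The mitochondrial iron importer Slc25a28 rose with an LFC of 1.94 (edgeR FDR 3.0e-05). Tfrc, the receptor for transferrin, had 852, 833 and 761 normalized counts with FeSO4 and 1422, 668 and 1043 without, an LFC of -0.36 that did not pass the test (edgeR FDR 0.25). Its iron response differed from that in PBS mice, where the LFC was 1.17 (difference -1.53, SE 0.35, edgeR FDR 0.017), although this call was lost without NaCl/PBS mouse 3 (edgeR FDR 0.050).

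Of 16 genes of heme metabolism 3 were higher and 3 lower. Beside Hmox1, the heme exporter Flvcr1 rose with an LFC of 1.45 (edgeR FDR 1.6e-05), and Cpox, an enzyme late in heme synthesis, fell with -1.12 (edgeR FDR 0.0012). Alas1 (ENSMUSG00000032786, chromosome 9, 106110642 to 106135734), the rate-limiting enzyme of heme synthesis in liver, had 15111, 15619 and 15012 normalized counts in FeSO4/DEX mice and 36632, 28307 and 32891 in NaCl/DEX mice. The LFC was -1.10 (SE 0.16, edgeR FDR 8.4e-05) with DEX and 0.91 without, so that iron moved Alas1 in opposite directions (difference -2.01, SE 0.22, edgeR FDR 1.6e-04). NaCl/PBS mice had 8144, 9852 and 6950 and FeSO4/PBS mice 18802, 13409 and 14627 normalized counts. The iron groups thus overlapped, and the controls lay apart, higher with DEX.

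Of 16 genes of hepcidin and BMP-SMAD signaling 8 were higher and 1 lower in DEX mice, with a median LFC of 0.59. Without DEX 4 were higher and 3 lower, with a median of -0.06. Hamp (ENSMUSG00000050440, chromosome 7, 30641766 to 30643990) encodes hepcidin. Its normalized counts were 32644, 41786 and 35229 in FeSO4/DEX mice and 15443, 8068 and 10101 in NaCl/DEX mice, an LFC of 1.71 (SE 0.34, edgeR FDR 0.0010), and the groups did not overlap. The difference from the effect in PBS mice was 0.39 (SE 0.46, edgeR FDR 0.69). Id2, an inhibitor of helix-loop-helix factors that BMP signaling raises, had 5793, 7550 and 6132 against 236, 228 and 286 normalized counts, an LFC of 4.70 (SE 0.25, edgeR FDR 4.1e-08). Id3 had an LFC of 3.71 (edgeR FDR 4.3e-08) and Id1 of 2.36 (edgeR FDR 3.2e-06). Atoh8, a helix-loop-helix factor upstream of hepcidin, stood at 383, 503 and 369.8 normalized counts after FeSO4 and 96.6, 108 and 75.5 without it, with an LFC of 2.16 (SE 0.20, edgeR FDR 2.1e-06). The effect was more positive with DEX than without for Id2 (difference 2.68, edgeR FDR 2.3e-04), Id3 (1.69, edgeR FDR 0.0020) and Atoh8 (2.51, edgeR FDR 1.6e-04), whereas for Id1 the difference of 0.74 did not pass the test (edgeR FDR 0.21). Mean normalized counts of Id2 were 1849 in NaCl/PBS, 7470 in FeSO4/PBS, 250 in NaCl/DEX and 6492 in FeSO4/DEX mice. In the same order they were 631, 2551, 162 and 2119 for Id3, and 279, 219, 93.4 and 419 for Atoh8. After iron the means of Id2 and Id3 were thus lower with DEX than without, and that of Atoh8 was higher. The control means of these genes were lower with DEX.

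NRF2 is a transcription factor that is freed by oxidants and binds antioxidant response elements. Of 25 of its known target genes 15 were higher and 0 lower in DEX mice, with a median LFC of 0.71 (19 and 0 without DEX, median 1.14). Slc7a11, the cystine importer, had 19, 51 and 24 reads in FeSO4/DEX mice and 0, 1 and 0 in NaCl/DEX mice, a ratio of 108 (18.8 to 4294). Osgin1, an oxidative stress response gene, rose from 221, 385 and 365 to 4507, 3824 and 3453 normalized counts. Its LFC was 3.599 (SE 0.40, edgeR FDR 7.8e-06) with DEX and 1.14 without, a difference of 2.46 (SE 0.51, edgeR FDR 0.011). NaCl/PBS mice had 3153, 3632 and 2260 and FeSO4/PBS mice 11516, 3128 and 5249 normalized counts of Osgin1. The iron groups thus overlapped, and the controls lay apart, lower with DEX. Txnrd1, which regenerates thioredoxin, had an LFC of 2.14 (edgeR FDR 1.4e-06). Sqstm1, an autophagy receptor that also releases NRF2, rose from 5041, 5620 and 5776 to 23959, 29929 and 21397 normalized counts with an LFC of 2.20 (SE 0.18, edgeR FDR 7.3e-07). In Sqstm1 and Osgin1 alike the FeSO4/DEX mice did not overlap the NaCl/DEX mice.

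The motif TGACNNNGC, searched on both strands, was found in the 250 bases upstream of the start of 5 of the 25 NRF2 targets. It was present in 10.4% of the promoters of tested genes, in 11.2% of those of DEGs that were higher and in 10.1% of those that were lower. The Sqstm1 promoter (GRCm39, chr11:50102886-50103135, minus strand) is shown since, of the NRF2 targets named here that hold the motif, it had the largest change. The match is in capitals, and it also holds the AP-1 motif TGANTCA.
Sqstm1: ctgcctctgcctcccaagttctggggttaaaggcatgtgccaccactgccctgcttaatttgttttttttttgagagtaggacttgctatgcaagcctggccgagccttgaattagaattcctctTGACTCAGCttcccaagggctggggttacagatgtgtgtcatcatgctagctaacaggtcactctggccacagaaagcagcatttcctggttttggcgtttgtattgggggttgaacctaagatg

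Ferroptosis is a form of cell death by lipid peroxidation. In a list that joins genes of the defence against it with genes of lipid peroxidation, 6 of 15 were higher and 2 lower. Chac1, a glutathione-degrading enzyme, had 1459, 1382 and 1121 normalized counts in FeSO4/DEX mice and 45.1, 90.3 and 74.5 in NaCl/DEX mice, an LFC of 4.23 (SE 0.28, edgeR FDR 1.0e-07). Aifm2, which encodes the anti-ferroptotic coenzyme Q reductase FSP1, fell from 1019, 955 and 966 to 245, 238 and 249.7. The LFC of Aifm2 was -2.004 (SE 0.11, edgeR FDR 4.2e-08) with DEX and -1.003 without, and the fall was larger with DEX (difference -1.002, SE 0.15, edgeR FDR 0.0015). NaCl/PBS mice had 553, 579 and 539 and FeSO4/PBS mice 265, 316 and 251 normalized counts of Aifm2. The controls thus lay apart, higher with DEX, and the iron groups lay close together. For Chac1 and Aifm2 the FeSO4/DEX and NaCl/DEX mice fell into separate ranges. Coq8a, a factor of coenzyme Q synthesis, rose with an LFC of 1.65 (edgeR FDR 1.1e-04), and Slc3a2, the heavy chain of the cystine importer, with 1.39 (edgeR FDR 2.3e-05). Of 18 genes of glutathione and methionine metabolism 7 were higher and 1 lower. Mat2a, which makes S-adenosylmethionine, rose with 2.49 (edgeR FDR 1.7e-07), and the glutathione synthesis subunits Gclc and Gclm with 1.37 (edgeR FDR 0.0013) and 0.68 (edgeR FDR 8.3e-04). Mtr, the methionine synthase, fell with -0.82 (edgeR FDR 5.7e-04).

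ATF4 is the factor of the integrated stress response. Of 22 tested target genes 9 were higher and 2 lower (median LFC 0.76). Atf3 (ENSMUSG00000026628, chromosome 1, 190902493 to 190950241), a stress-induced repressor, rose from 31.1, 21.6 and 43.3 to 1312, 2058 and 1020 normalized counts, with an LFC of 5.51 (SE 0.57, edgeR FDR 4.8e-06). Fgf21, a fasting and stress hormone of the liver, had an LFC of 3.86 (edgeR FDR 0.0025), the cationic amino acid transporter Slc7a1 3.73 (edgeR FDR 6.2e-07), and the stress hormone Gdf15 3.69 (edgeR FDR 1.6e-05). The median of the list without DEX was 0.84. Of 21 genes of the unfolded protein response 3 were higher and 3 lower. Xbp1 and Dnajb9, a factor and a chaperone of the endoplasmic reticulum, had LFCs of 1.00 (edgeR FDR 0.0020) and 0.77 (edgeR FDR 3.9e-04), and the sensor Ern1 and the degradation factor Edem1 had -0.75 (edgeR FDR 0.0012) and -0.68 (edgeR FDR 9.3e-04).

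The motif TGATGNAA, to which ATF4 binds with C/EBP factors, was present on either strand in the promoters of 6 of 25 ATF4 target genes. Of all tested genes 2.25% had it, of DEGs that were higher 2.73% and of DEGs that were lower 2.07%. The Atf3 promoter (GRCm39, chr1:190915538-190915787, minus strand) is printed as the target with the largest change that holds it, with the match, here on the reverse strand, in capitals.
Atf3: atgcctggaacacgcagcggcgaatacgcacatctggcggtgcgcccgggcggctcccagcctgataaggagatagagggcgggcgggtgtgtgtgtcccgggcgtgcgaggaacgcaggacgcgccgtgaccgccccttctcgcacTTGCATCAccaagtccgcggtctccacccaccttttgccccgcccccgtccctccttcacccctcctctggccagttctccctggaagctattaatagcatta

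Immediate-early genes, which are switched on within minutes of a stimulus without new protein, moved in one direction. All 22 tested members were higher in FeSO4/DEX mice (22.4% of all genes were), with a median LFC of 2.87, and all 22 were higher without DEX too (27.2% of all genes), with a median of 2.86. Junb (ENSMUSG00000052837, chromosome 8, 85701113 to 85705359), an AP-1 subunit whose exons overlap those of Prdx2 on the other strand, had 4744, 6044 and 3975 normalized counts in FeSO4/DEX mice and 98.8, 144 and 128 in NaCl/DEX mice. The LFC was 5.31 (SE 0.39, edgeR FDR 2.7e-07) with DEX and 2.18 without. The difference was 3.13 (SE 0.48, edgeR FDR 0.0015). NaCl/PBS mice had 872, 2096 and 713 and FeSO4/PBS mice 6488, 6004 and 4152 normalized counts, so that the controls lay apart and the iron groups overlapped. No promoter of the 24 listed genes held the AP-1 motif TGANTCA in its 250 upstream bases, against 4.84% of tested genes, 6.95% of DEGs that were higher and 4.51% of DEGs that were lower.

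Phosphatases that switch off MAP kinases and the Sprouty proteins rose with them, 11 of 15 higher and 1 lower with a median of 1.18. Dusp8, Dusp10, Dusp6 and Spry1 had LFCs of 3.68, 2.85, 1.57 and 1.51 (edgeR FDR at most 1.4e-04). The rise of Dusp8 was smaller with DEX than without (difference -2.83, SE 0.59, edgeR FDR 0.011), and without NaCl/PBS mouse 2 this was -4.43 (edgeR FDR 3.2e-04). Dusp14 was the member that fell, with an LFC of -1.02 (edgeR FDR 0.018), a call lost without NaCl/DEX mouse 1 (edgeR FDR 0.055). In PBS mice it rose with 2.06 (edgeR FDR 3.1e-04).

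Of 17 genes of NF-kappaB subunits and inhibitors 13 were higher and 0 lower, with a median LFC of 1.44 (10 and 2 without DEX, median 0.95). Nfkbia, the inhibitor IkappaB alpha, had an LFC of 0.71 (edgeR FDR 0.0023) with DEX and 1.67 (edgeR FDR 1.7e-06) without, a difference of -0.96 (edgeR FDR 0.020) that was lost without FeSO4/DEX mouse 1 or NaCl/PBS mouse 1 or 3 (edgeR FDR 0.051 to 0.059). Bcl3 and Relb, members of the pathway, had LFCs of 3.75 (edgeR FDR 9.7e-07) and 2.89 (edgeR FDR 1.5e-05), and the adhesion molecule Icam1 2.32 (edgeR FDR 3.8e-04). Tnfaip2, a TNF-induced gene, rose from 68.7, 58.3 and 57.4 to 349.9, 249 and 253 normalized counts in DEX mice, an LFC of 2.21 (SE 0.19, edgeR FDR 9.3e-07). In PBS mice it fell, with -0.70 (edgeR FDR 0.0026), from 509, 611 and 443 to 365, 276 and 318, and the difference was 2.92 (SE 0.25, edgeR FDR 1.8e-05). The iron groups overlapped, and the controls lay apart.

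Chemokines and inflammatory cytokines had 9 of 18 members higher and 3 lower. Cxcl1, a neutrophil chemokine, had 1003, 1792 and 1210 normalized counts after FeSO4 and 23.6, 5.64 and 38.3 without it, an LFC of 5.90 (SE 1.07, edgeR FDR 5.5e-04). Il1b (ENSMUSG00000027398, chromosome 2, 129206490 to 129213059), the cytokine interleukin-1 beta, rose from 2.15, 2.82 and 0 to 42.5, 77.5 and 42.8, an LFC of 4.91 (SE 1.00, edgeR FDR 0.0013). For Cxcl1 and Il1b the iron mice lay above every control. The effect on Il1b without DEX was 0.20 (edgeR FDR 0.79), with controls of 36.0, 212 and 29.6. The difference of 4.70 (edgeR FDR 0.034) was 3.21 (edgeR FDR 0.016) without NaCl/PBS mouse 2, and it was lost without FeSO4/DEX mouse 2 or 3, FeSO4/PBS mouse 3 or NaCl/DEX mouse 1, 2 or 3 (edgeR FDR 0.054 to 0.099). Il1a had an LFC of 2.14 (edgeR FDR 4.4e-04). Ccl2, a monocyte chemokine, had 10, 11 and 7 reads against 0, 1 and 0, a ratio of 32.0 (5.30 to 1310), and its call was lost without NaCl/DEX mouse 1 or 3 (edgeR FDR 0.056 to 0.058). Cxcl12, a chemokine made by stromal and endothelial cells, fell with -1.17 (edgeR FDR 1.6e-05). Il6 itself had 5, 6 and 3 reads in the FeSO4/DEX mice and 0, 0 and 0 in the NaCl/DEX mice, too few to be tested.

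Neutrophil markers rose with these genes. Of 10 listed markers 7 were tested and 7 were higher, and their summed normalized counts were 677, 731 and 606 in FeSO4/DEX mice and 93.4, 125 and 86.6 in NaCl/DEX mice. S100a8 and S100a9, the calprotectin subunits, had LFCs of 3.45 (edgeR FDR 4.0e-05) and 3.14 (edgeR FDR 9.9e-06). The defining markers Ly6g, Camp and Mpo had between 0 and 3 reads in each of these mice. The part of neutrophils in the rise of the inflammatory genes was not tested.

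Of 30 genes of the IL-6 pathway and the acute-phase response 10 were higher and 5 lower in DEX mice (median LFC 0.52), against 19 and 3 in PBS mice (median 0.85). Socs3 (ENSMUSG00000053113, chromosome 11, 117856905 to 117860898), the feedback inhibitor of cytokine receptors, had 3798, 4468 and 2266 normalized counts in FeSO4/DEX mice and 39.7, 73.3 and 49.3 in NaCl/DEX mice, an LFC of 6.01 (SE 0.57, edgeR FDR 2.2e-06). The LFC without DEX was 3.19. The difference of 2.82 (edgeR FDR 0.025) was 1.72 (edgeR FDR 0.013) without NaCl/PBS mouse 2, and the call was lost without FeSO4/DEX mouse 1 or 2, FeSO4/PBS mouse 3 or NaCl/DEX mouse 1 or 3 (edgeR FDR 0.051 to 0.070). Cd14, the coreceptor for endotoxin, had an LFC of 3.42 (edgeR FDR 7.3e-06), and Cebpd, a factor of the acute phase, 2.31 (edgeR FDR 2.8e-05). Saa4, a constitutive serum amyloid, fell with -2.73 (edgeR FDR 7.5e-07). Lcn2, an iron-siderophore-binding protein of the acute phase, had 15573, 15424 and 10681 against 8331, 7432 and 4457 normalized counts, and its LFC of 1.04 did not pass the test with DEX (edgeR FDR 0.089) while it was 3.88 (edgeR FDR 3.3e-05) without. That difference was -2.84 (edgeR FDR 0.023) and was lost without FeSO4/DEX mouse 3, NaCl/DEX mouse 1 or NaCl/PBS mouse 1 or 3 (edgeR FDR 0.054 to 0.065).

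Of 20 interferon-stimulated genes 4 were higher and 6 lower, against 22.4% and 20.9% of all genes (3 and 13 without DEX, against 27.2% and 27.3%). The antiviral genes Mx2 and Rsad2 rose with LFCs of 1.89 (edgeR FDR 1.9e-06) and 1.49 (edgeR FDR 4.3e-05), while Oasl2 and the deconjugating enzyme Usp18 fell with -1.78 (edgeR FDR 4.7e-05) and -1.55 (edgeR FDR 1.0e-05). Usp18 was at -0.28 without DEX (difference -1.27, edgeR FDR 0.0077).

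Targets of p53, the factor of DNA damage, had 11 of 21 members higher and 1 lower, and genes of apoptosis and necroptosis 12 of 21 higher and 1 lower. Gadd45a, a stress and DNA damage gene, rose from 41.9, 32.9 and 46.3 to 2888, 2832 and 2199 normalized counts, an LFC of 6.03 (SE 0.34, edgeR FDR 4.3e-08), which was larger than without DEX (difference 2.09, edgeR FDR 0.0087). Btg2, an antiproliferative gene, had an LFC of 3.82 (edgeR FDR 4.7e-06) and the polo-like kinase Plk3 2.66 (edgeR FDR 7.2e-06). Plk2 was raised by 2.11 (edgeR FDR 1.0e-05) with DEX and had 0.43 (edgeR FDR 0.11) without (difference 1.68, edgeR FDR 0.0074). In Gadd45a all iron mice exceeded all controls.

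Cdkn1a (ENSMUSG00000023067, chromosome 17, 29309936 to 29319701), which encodes the cell cycle inhibitor p21, had 8435, 9544 and 8176 normalized counts in FeSO4/DEX mice and 2020, 2765 and 2147 in NaCl/DEX mice. The LFC was 1.92 (SE 0.18, edgeR FDR 1.9e-06). Without DEX the counts were 9851, 8603 and 9167 after FeSO4 and 39.6, 77.6 and 53.3 without it, an LFC of 7.35, and the difference between the effects was -5.44 (SE 0.27, edgeR FDR 1.6e-07). Mice given iron overlapped with and without DEX, and controls did not. Among the death genes Tnfrsf12a (the TWEAK receptor, whose exons overlap those of Hcfc1r1) had an LFC of 3.45 (edgeR FDR 1.8e-08), Bcl2l11 (the killer protein BIM) 2.76 (edgeR FDR 5.7e-06), Tnfrsf1a (a TNF receptor) 2.16 (edgeR FDR 2.6e-07) and the survival gene Mcl1 1.22 (edgeR FDR 1.4e-06). Bcl2l1, which encodes the survival protein BCL-XL, had an LFC of 0.06 (edgeR FDR 0.75) with DEX and 2.74 (edgeR FDR 1.9e-08) without (difference -2.67, edgeR FDR 5.5e-06).

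The circadian clock consists of the activators BMAL1, CLOCK and NPAS2, the repressors PER and CRY, and output factors of the PAR-bZIP family. Of 21 clock genes 8 were higher and 8 lower, so that the list moved in both directions around a median of 0.05. Among the activators, Bmal1 rose from 18.2, 34.8 and 23.2 to 529, 647 and 512 normalized counts, an LFC of 4.45 (SE 0.40, edgeR FDR 1.5e-06). Among the outputs Dbp, a PAR-bZIP factor whose exons overlap those of Sphk2 on the other strand, fell from 828, 541 and 762 to 37.7, 47.6 and 128, an LFC of -3.33 (SE 0.33, edgeR FDR 3.4e-06). Per3 fell and Npas2 rose as given above, whereas Per1 rose with 1.14 (edgeR FDR 1.2e-04). The fall of Dbp was smaller than without DEX (difference 1.66, edgeR FDR 0.048), a call lost without FeSO4/DEX mouse 3, FeSO4/PBS mouse 1, 2 or 3, NaCl/DEX mouse 1, 2 or 3 or NaCl/PBS mouse 1 or 3 (edgeR FDR 0.058 to 0.16). Nr1d1, the repressor REV-ERB alpha, had 1884, 2269 and 1775 against 148, 412 and 272, an LFC of 2.83 (edgeR FDR 2.6e-05) with DEX and 0.33 (edgeR FDR 0.41) without (difference 2.49, edgeR FDR 0.0068). In Bmal1 and Nr1d1 the mice of the groups did not overlap.

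The D-box TTATGTAA, the site of PAR-bZIP factors, was found, on either strand, in 2 of 21 clock promoters. It was present in 0.557% of promoters of tested genes, 0.341% of DEGs that were higher and 0.813% of DEGs that were lower. The E-box CACGTG, the site of BMAL1 with CLOCK or NPAS2, was found in 6 of 21 clock promoters, 7.60% of tested genes, 7.98% of DEGs that were higher and 6.87% of DEGs that were lower. The Per3 promoter (GRCm39, chr4:151129141-151129390, minus strand) is printed since Per3 had the largest change among clock genes with a D-box, and both matches are in capitals.
Per3: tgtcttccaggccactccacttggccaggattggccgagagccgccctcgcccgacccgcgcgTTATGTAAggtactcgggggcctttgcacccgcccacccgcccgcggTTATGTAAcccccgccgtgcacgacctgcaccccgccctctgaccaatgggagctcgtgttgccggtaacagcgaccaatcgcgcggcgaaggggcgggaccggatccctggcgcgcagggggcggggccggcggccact

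Heat shock proteins and co-chaperones showed no common direction, with 5 of 22 higher and 8 lower. Hspa1b (ENSMUSG00000090877, chromosome 17, 35175412 to 35178214), the inducible HSP70 whose reads could be shared with the near-identical Hspa1a, fell from 129.9, 136 and 259.8 to 10.6, 8.16 and 7.13 normalized counts, an LFC of -4.30 (SE 0.44, edgeR FDR 4.0e-06). Chordc1, a co-chaperone of HSP90, fell with -1.52 (edgeR FDR 1.3e-06). The small heat shock protein Hspb8 and its partner Bag3 rose with 2.42 (edgeR FDR 1.8e-08) and 1.91 (edgeR FDR 2.6e-06). Every FeSO4/DEX mouse was below every control for Hspa1b. The heat shock element GAANNTTC, which reads the same on both strands, was found in 8 of 23 promoters of the list, 5.19% of tested genes, 5.25% of DEGs that were higher and 5.99% of DEGs that were lower. The Hspa1b promoter (GRCm39, chr17:35178215-35178464, minus strand) holds 1 match, in capitals, and is printed as the one with the largest change.
Hspa1b: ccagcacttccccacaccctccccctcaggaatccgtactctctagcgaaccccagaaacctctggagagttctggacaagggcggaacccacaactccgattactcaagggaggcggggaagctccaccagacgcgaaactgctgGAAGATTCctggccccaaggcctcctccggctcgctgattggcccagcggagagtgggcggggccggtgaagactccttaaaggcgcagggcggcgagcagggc

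Cholesterol synthesis, which the factor SREBP2 controls, fell in most of its genes. Of 21 genes 17 were lower and 1 higher in DEX mice (20.9% of all genes were lower), with a median LFC of -1.07, and 16 were lower and 0 higher without DEX (27.3% of all genes), with a median of -0.93. Idi1 and Hmgcs1, enzymes of this route, had LFCs of -2.06 (edgeR FDR 1.9e-04) and -1.91 (edgeR FDR 1.3e-04). The difference between the effects with and without DEX ran from -0.89 to 0.82 over the 21 genes. edgeR called this difference in 0 of them and DESeq2 in 0, and 0 had an unadjusted edgeR p under 0.05.

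Other genes of lipid and bile acid metabolism moved singly. In bile acid synthesis and transport 3 of 24 were higher and 3 lower. Beside Cyp7a1, the importer Slco1b2 fell with -0.81 (edgeR FDR 0.0090), and Hsd3b7 and Cyp8b1, later enzymes of the route, rose with 1.89 (edgeR FDR 7.4e-06) and 1.34 (edgeR FDR 5.2e-04). In lipogenesis 7 of 16 were higher and 3 lower. Srebf1, the master factor of lipogenesis, rose with 1.41 (edgeR FDR 4.1e-05) and had -0.28 (edgeR FDR 0.21) without DEX (difference 1.70, edgeR FDR 0.0017). Pnpla2, the triglyceride lipase, rose with 1.63 (edgeR FDR 1.7e-06) and the elongase Elovl6 fell with -1.47 (edgeR FDR 8.4e-06). In fatty acid oxidation 6 of 23 were higher and 2 lower, with Plin2, a lipid droplet protein, at 2.87 (edgeR FDR 2.5e-07), the bifunctional enzyme Ehhadh at 1.22 (edgeR FDR 0.0017) and the factor Ppara at -1.32 (edgeR FDR 9.4e-04).

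Sugar and amino acid metabolism held rises and falls side by side. Pck1 had 6867, 14790 and 12857 normalized counts in FeSO4/DEX mice and 74106, 79165 and 75434 in NaCl/DEX mice, and G6pc1, the last enzyme of gluconeogenesis, rose with 1.78 (edgeR FDR 0.0048). Of 12 genes of gluconeogenesis 3 were higher and 3 lower, including the kinase Sik1 with 3.10 (edgeR FDR 8.7e-06) and the factor Foxo3 with -1.63 (edgeR FDR 7.3e-06). Of 21 genes of glycolysis 9 were higher and 6 lower (22.4% and 20.9% of all genes), but 4 and 7 with library size alone. Pfkp, a phosphofructokinase whose exons overlap those of the more abundant Pitrm1 on the other strand, had an LFC of 1.13 (edgeR FDR 4.8e-04), and Pfkfb1 had -1.25 (edgeR FDR 5.7e-04). Hexokinase 2 (Hk2) had -1.05 (edgeR FDR 0.025), lost without FeSO4/DEX mouse 2 or 3 or NaCl/DEX mouse 1 or 2 (edgeR FDR 0.050 to 0.083). Pdk4, which blocks the entry of pyruvate into the citrate cycle, rose from 187, 377 and 237 to 7447, 10955 and 4539, an LFC of 4.84 (SE 0.85, edgeR FDR 4.2e-04).

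Of 29 genes of the urea cycle and amino acid breakdown 4 were higher and 4 lower, with Agxt (an aminotransferase) at 1.62 (edgeR FDR 6.3e-06), Got1 (aspartate aminotransferase) at 0.98 (edgeR FDR 0.0055) and Arg1 (arginase) at 0.81 (edgeR FDR 0.0023). In the insulin and IGF axis 4 of 14 were higher and 1 lower. Irs2 (ENSMUSG00000038894, chromosome 8, 11034681 to 11059499), the adaptor of the insulin receptor, rose from 143, 279 and 117 to 2518, 4374 and 2072 normalized counts, an LFC of 4.05 (SE 0.44, edgeR FDR 6.6e-06), and Igfbp1 and Igfbp3, which bind IGFs, had 2.65 (edgeR FDR 1.7e-04) and 0.61 (edgeR FDR 0.0017). Igf1 itself had 0.43 (edgeR FDR 0.033), lost without FeSO4/DEX mouse 2 or 3 or NaCl/DEX mouse 1 or 3 (edgeR FDR 0.068 to 0.15) and with library size alone (0.22, edgeR FDR 0.24). Among the hepatokines 6 of 17 were higher and 2 lower, with the activin subunit Inhbb at 2.96 (edgeR FDR 1.7e-04) and the activin-binding protein Fst at 3.52 (edgeR FDR 1.9e-04).

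Of 27 genes of drug metabolism by cytochrome P450 5 were higher and 4 lower, shares below the 22.4% and 20.9% of all genes, and 0 and 5 with library size alone. Cyp2b10 (ENSMUSG00000030483, chromosome 7, 25597045 to 25626049) had 562, 1199 and 1014 normalized counts in FeSO4/DEX mice and 9044, 7153 and 8212 in NaCl/DEX mice, an LFC of -3.14 (SE 0.24, edgeR FDR 4.1e-07). In PBS mice it rose, with 1.72 (edgeR FDR 3.9e-05), and the difference was -4.86 (SE 0.34, edgeR FDR 3.4e-06). Its activator Nr1i3 (CAR) fell with -1.34 (edgeR FDR 9.9e-05), and Cyp3a13 fell with -0.51 (edgeR FDR 0.0065). Cyp2b13 had 0.81 (edgeR FDR 0.037), a call lost with library size alone (0.61, edgeR FDR 0.096) and without FeSO4/DEX mouse 2 or 3 or NaCl/DEX mouse 2 or 3 (edgeR FDR 0.084 to 0.17).

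Ribosome biogenesis, the assembly of ribosomes in the nucleolus, had 19 of 29 genes higher and 0 lower in DEX mice (median LFC 0.55) and 27 higher and 0 lower in PBS mice (median 1.57). The effect was smaller with DEX in 13 of the 29 genes and larger in 0, where 3.2% and 2.99% of all genes had such differences. Nop58, a protein of box C/D small nucleolar particles, rose from 713, 599.9 and 715 to 2128, 2020 and 1618 with an LFC of 1.51 (SE 0.15, edgeR FDR 3.6e-06), and without DEX the LFC was 2.91 (difference -1.41, SE 0.21, edgeR FDR 0.0015). Rrp1b, Rrp12 and Utp4, factors of rRNA processing, had LFCs of 3.03 (edgeR FDR 8.1e-08), 1.80 (edgeR FDR 9.5e-07) and 1.43 (edgeR FDR 3.4e-06). Of 31 proteasome subunits 8 were higher and 1 lower with DEX, near the 22.4% of all genes for the rises, and 4 and 3 with library size alone. Without DEX 21 were higher and 1 lower. The difference was called in 0 of the 31 by edgeR and in 0 by DESeq2, and 0 had an unadjusted edgeR p under 0.05. In DEX mice Psmd8, Psmd11, Psmd14 and Psmd3 rose with 1.05 (edgeR FDR 8.0e-06), 0.81 (edgeR FDR 2.6e-04), 0.56 (edgeR FDR 0.0030) and 0.50 (edgeR FDR 0.0035).

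Metallothioneins, which bind zinc and copper, and zinc transporters had 5 of 10 members higher and 1 lower. Mt1 and Mt2, which are close paralogs, had LFCs of 1.87 (edgeR FDR 1.3e-04) and 1.93 (edgeR FDR 0.0013), the exporters Slc30a10 and Slc30a1 2.86 (edgeR FDR 3.0e-07) and 1.80 (edgeR FDR 1.4e-07). In the cytoskeleton 9 of 15 genes were higher and 1 lower. Krt8 and Krt18, the keratins of hepatocytes, rose with 2.71 (edgeR FDR 8.5e-08) and 2.48 (edgeR FDR 6.5e-08), and the tubulins Tubb6 and Tubb2a with 3.56 (edgeR FDR 3.2e-07) and 2.83 (edgeR FDR 4.2e-06). Exons of Tubb6 overlap those of Afg3l2, and exons of Tubb2a those of Bphl, both on the other strand and with more reads. In coagulation and fibrinolysis 6 of 20 were higher and 1 lower. The urokinase receptor Plaur had 4.51 (edgeR FDR 1.9e-06), tissue factor (F3) 2.50 (edgeR FDR 4.4e-05), thrombomodulin (Thbd) 2.14 (edgeR FDR 2.6e-05) and factor XI (F11) -0.89 (edgeR FDR 3.7e-04). Of 17 HIF targets 5 were higher and 2 lower, including Egln3 with 1.17 (edgeR FDR 8.8e-05), Kdm3a with 0.74 (edgeR FDR 0.0053) and P4ha1 with -0.95 (edgeR FDR 0.0023).

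Of 18 hepatocyte identity genes 5 were higher and 5 lower, near the 22.4% and 20.9% of all genes, and 2 and 5 with library size alone. The 5 that fell were transcription factors, among them Foxa3 with -2.21 (edgeR FDR 1.9e-06), Foxa2 with -1.72 (edgeR FDR 6.3e-05), Nr5a2 with -1.02 (edgeR FDR 2.4e-05) and Onecut1 with -1.22 (edgeR FDR 0.022). The call of Onecut1 was lost without FeSO4/DEX mouse 2 or 3 or NaCl/DEX mouse 1 (edgeR FDR 0.059 to 0.075). Of the mitochondrially encoded mRNAs 7 of 13 had enough reads to be tested, and mt-Nd6, which overlaps mt-Nd5 on the other strand, was the 1 that changed, with -1.43 (edgeR FDR 1.2e-05).

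**Figure D2:**
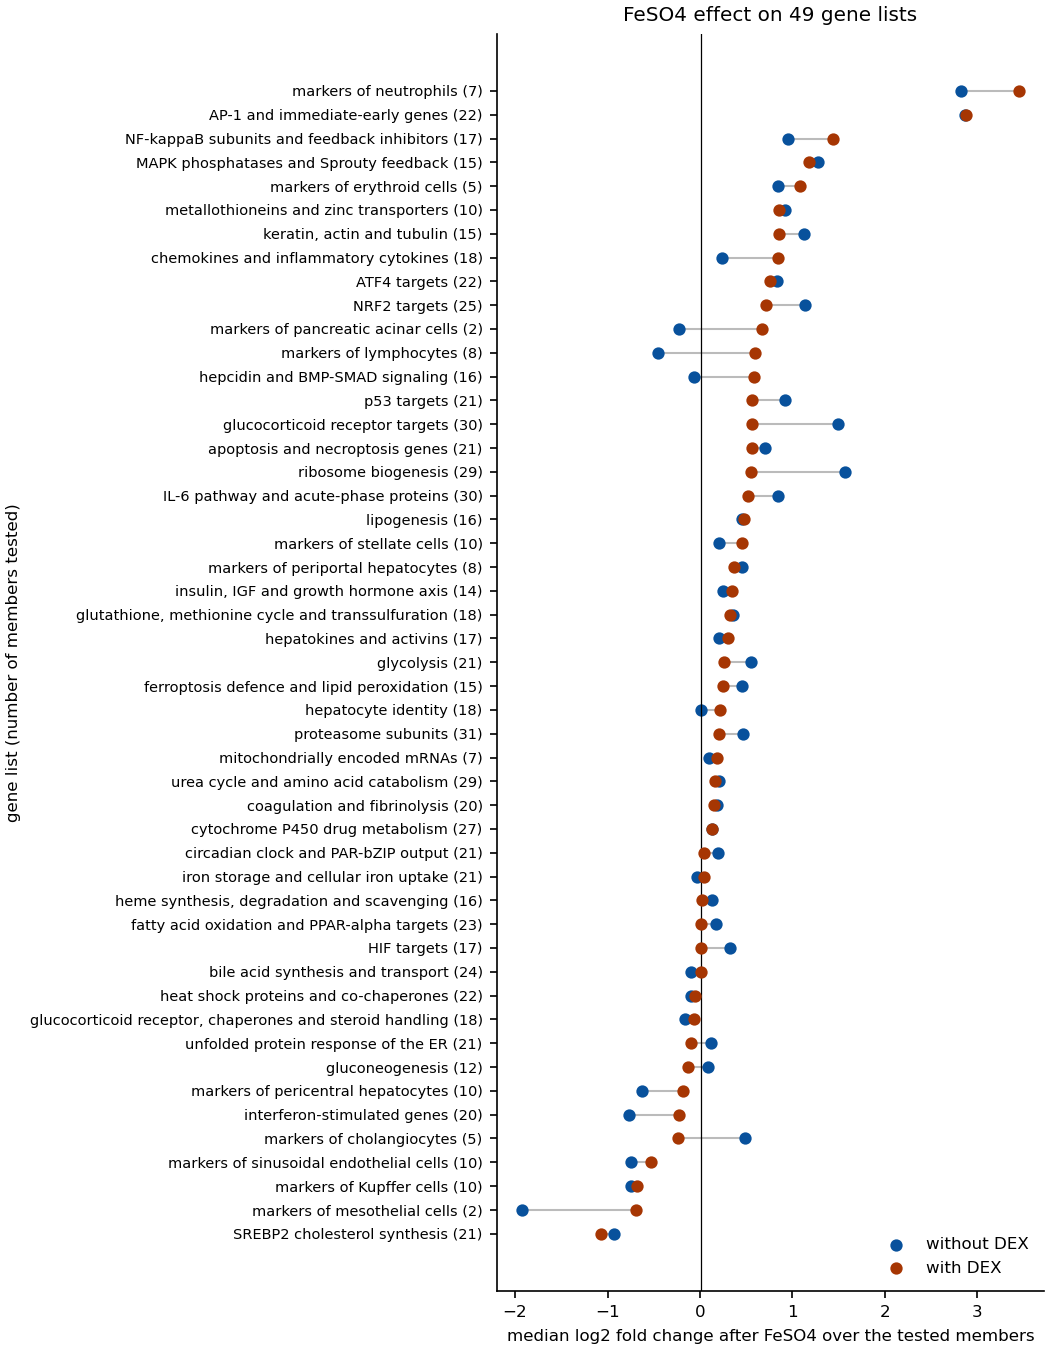
Median LFC after FeSO4 over the tested members of each of 49 gene lists, in PBS mice (blue) and DEX mice (brown), with the number of members in brackets and a black line at the median of all genes in DEX mice (0.01). Immediate-early genes lie at 2.87 and 2.86 in DEX and PBS mice, whereas GR targets lie at 0.56 and 1.49 and ribosome biogenesis at 0.55 and 1.57.

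Markers of other liver cells differed by list in how many moved with iron in DEX mice. Of all genes 22.4% were higher and 20.9% lower. Of 10 Kupffer cell markers 0 were higher and 6 lower, including Cd5l with -1.04 (edgeR FDR 3.2e-04), Adgre1 with -0.87 (edgeR FDR 0.0089), Csf1r with -0.77 (edgeR FDR 0.0018) and Marco with -1.29 (edgeR FDR 0.019). The call of Marco was lost without FeSO4/DEX mouse 3 or NaCl/DEX mouse 2 (edgeR FDR 0.070 to 0.13). Of 10 markers of sinusoidal endothelial cells 1 was higher and 5 lower. Gpr182 had -1.63 (edgeR FDR 5.3e-05), Oit3 -1.31 (edgeR FDR 2.5e-04) and Clec4g -0.68 (edgeR FDR 0.0019). Exons of Gpr182 overlap those of Zbtb39, and exons of Oit3 those of the more abundant Pla2g12b, on the other strand. Lyve1 had 0.71 (edgeR FDR 0.019), lost with library size alone (0.52, edgeR FDR 0.081) and without FeSO4/DEX mouse 1 or NaCl/DEX mouse 3 (edgeR FDR 0.058 to 0.11). The summed endothelial markers were 8551, 4714 and 5886 in FeSO4/DEX and 8266, 8605 and 7447 in NaCl/DEX mice and overlapped between the groups.

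Stellate cell markers had 3 of 10 higher and 0 lower (22.4% and 20.9% of all genes), or 1 and 1 with library size alone. Their sums were 9783, 8579 and 9158 in FeSO4/DEX mice against 7226, 7313 and 6107 in NaCl/DEX mice. Dcn (decorin) had an LFC of 0.56 (edgeR FDR 0.0025). Pdgfrb, a growth factor receptor, had 0.69 (edgeR FDR 0.016), lost without FeSO4/DEX mouse 1 or NaCl/DEX mouse 1 (edgeR FDR 0.065 to 0.071) and with library size alone (0.49, edgeR FDR 0.084). Ecm1, a matrix protein, had 0.41 (edgeR FDR 0.0078), lost with library size alone (0.22, edgeR FDR 0.16). The hemoglobin genes, which mark red cells and are close paralogs, had 4 of 5 erythroid markers higher, with sums of 3981, 8406 and 8911 against 2803, 3411 and 3673. Hba-a1, Hba-a2, Hbb-bs and Hbb-bt had LFCs of 1.28, 1.28, 1.08 and 1.05, and each call was lost without FeSO4/DEX mouse 2 (edgeR FDR 0.051), FeSO4/DEX mouse 2 or 3 (edgeR FDR 0.054 to 0.064), FeSO4/DEX mouse 2 or 3 or NaCl/DEX mouse 1 (edgeR FDR 0.069 to 0.087) and FeSO4/DEX mouse 2 or 3 or NaCl/DEX mouse 1, 2 or 3 (edgeR FDR 0.070 to 0.18), in that order. Of 5 tested cholangiocyte markers 1 was higher, Sox9, a factor of bile duct cells, with 4.53 (edgeR FDR 1.3e-06). Of 8 tested lymphocyte markers edgeR called 0 and DESeq2 1, and 3 had an unadjusted edgeR p under 0.05. For 2 tested mesothelial and 2 tested pancreatic acinar markers these 3 counts were 0. Of 10 pericentral markers 0 were higher and 2 lower, and of 8 periportal markers 2 were higher and 1 lower. Slc1a2, a pericentral glutamate transporter, had -0.61 (edgeR FDR 0.0032), and the periportal Hsd17b13 0.42 (edgeR FDR 0.024), which was lost without FeSO4/DEX mouse 2 or NaCl/DEX mouse 1 or 2 (edgeR FDR 0.053 to 0.21) and with library size alone (0.22, edgeR FDR 0.17).

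The question of where the iron response on the steroid background departed from that without it was put to a test of the difference between the effects. In PBS mice 3770 genes were higher and 3783 lower after FeSO4 (27.2% and 27.3%), and 1730 and 2040 were DEGs (12.5% and 14.7%), or 1183 and 3073 with library size alone. Of the 1474 DEGs that rose with DEX, 1103 were also DEGs that rose without it, which is 74.8% of the former and 63.8% of the latter. Of the 1362 that fell with DEX, 1002 did so without it, 73.6% of the former and 49.1% of the latter. Across the tested genes the LFC with DEX had a slope of 0.729 on the LFC without it (Pearson's r 0.797, Spearman's rho 0.774). This is a description over genes, which are not independent replicates, and the slope of the reverse fit was 0.873.

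The effect differed (edgeR FDR up to 0.05) in 857 of 13857 genes, being higher with DEX in 414 and lower in 443 (2.99% and 3.2%), or in 575 and 327 with library size alone. Of these, 171 were lowered without DEX and not called with it, 138 were raised without DEX and not called with it, and 128 were raised in both, less with DEX. A further 90 were lowered in both, less with DEX, whereas 39 were raised more and 27 lowered more with DEX. There were 80 genes raised and 80 lowered with DEX that were not called without it. In the remaining 104 the effects were called in opposite directions, 34 raised with DEX and lowered without, and 70 the reverse. A gene not called in a group was not shown to be without an effect there.

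**Figure D3:**
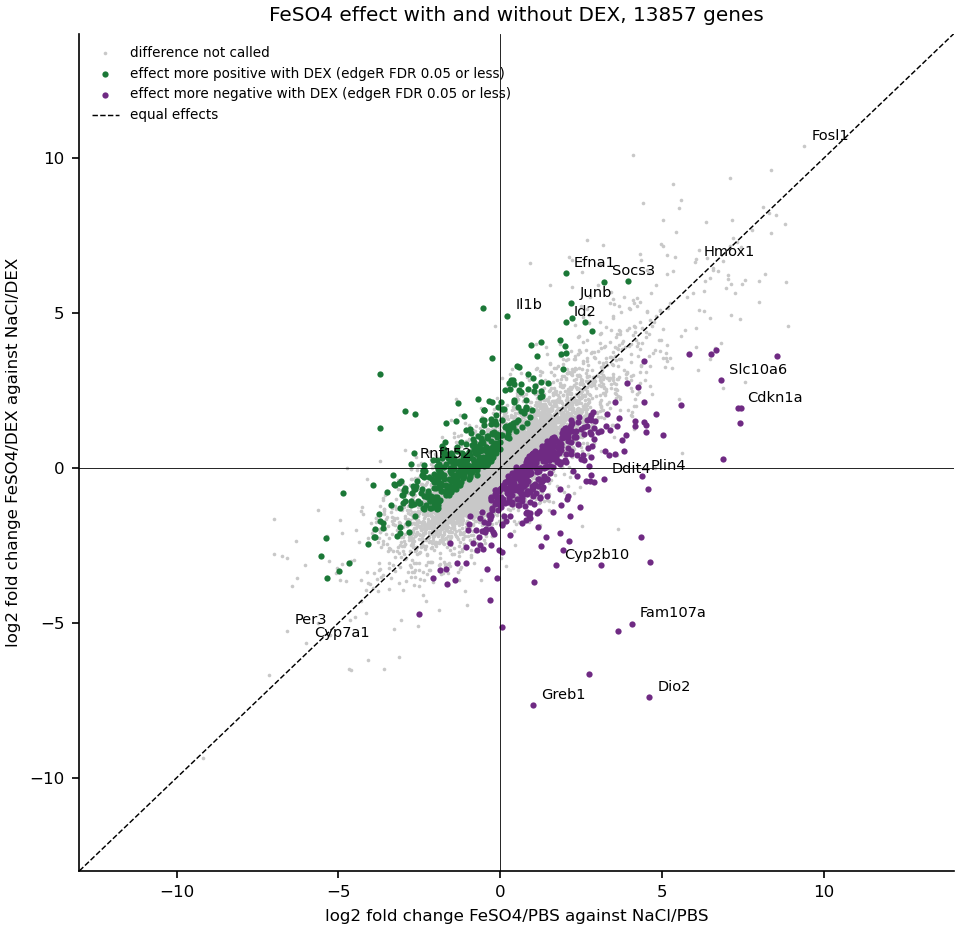
LFC after FeSO4 in DEX mice (vertical axis) against that in PBS mice (horizontal axis) for 13857 tested genes, each point a gene, with genes whose effects differed at an edgeR FDR of 0.05 or less marked. The slope over all points is 0.729 and is not drawn. The dashed line marks equal effects, and the 857 marked genes lie off that line on both sides.

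Among these 857 genes, which were chosen for their difference, the levels of the 4 groups are given as a description only. NaCl/DEX mice did not overlap NaCl/PBS mice in 846 of them (98.7%, against 37.9% of all genes), while FeSO4/DEX mice did not overlap FeSO4/PBS mice in 191 (22.3%, against 9.3% of all genes). The median distance between the group means was 0.21 on the log2 scale between the iron groups and 1.07 between the control groups. In 813 genes (94.9%, against 64.2% of all genes) the iron groups lay closer together than the control groups.

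Target genes of the GR are what DEX acts on most directly. Of 30 targets, 14 were higher and 8 lower after FeSO4 in DEX mice (22.4% and 20.9% of all genes, median LFC 0.56), and 25 were higher and 2 lower in PBS mice (27.2% and 27.3% of all genes, median 1.49). The difference was negative in 13 and positive in 2 of the 30 (3.2% and 2.99% of all genes). Mean levels were above those of NaCl/PBS in NaCl/DEX mice for 26 of the 30. FeSO4/DEX and FeSO4/PBS mice did not overlap in 2 of the 30, a share close to the 9.3% of all genes, whereas NaCl/DEX and NaCl/PBS mice did not overlap in 27 (37.9% of all genes).

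Tsc22d3 (ENSMUSG00000031431, chromosome X, 139440091 to 139501408), which encodes the GC-induced leucine zipper GILZ, had 407, 358 and 478 normalized counts in FeSO4/DEX mice and 4330, 3823 and 4090 in NaCl/DEX mice. It fell by an LFC of -3.30 (SE 0.18, edgeR FDR 4.3e-08), more than without DEX, where the LFC was -1.86 (difference -1.44, edgeR FDR 0.0032). Fkbp5 (ENSMUSG00000024222, chromosome 17, 28618058 to 28737521), a chaperone that restrains the GR, had 3480, 3020 and 4003 against 9723, 10944 and 9940 normalized counts, an LFC of -1.54 (SE 0.29, edgeR FDR 6.2e-04). In PBS mice iron raised Fkbp5 with 0.89 (edgeR FDR 0.016), from 1341, 3654 and 1481 to 3679, 4122 and 4175, and the difference was -2.43 (edgeR FDR 0.0026). For both genes the DEX-treated groups lay apart, with iron below control.

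Fam107a fell with DEX as given above and rose without it, from 0, 1.87 and 4.23 to 28.2, 44.8 and 28.1 normalized counts with an LFC of 4.05 (edgeR FDR 2.8e-05), a difference of -9.08 (edgeR FDR 1.8e-06). The iron groups overlapped, below one control group and above the other. Lpin1, a phosphatidate phosphatase, fell with -0.90 (edgeR FDR 0.0027) in DEX mice and rose with 1.44 (edgeR FDR 5.3e-05) in PBS mice (difference -2.34, edgeR FDR 3.5e-04). Tdo2, which degrades tryptophan, fell with -0.76 (edgeR FDR 0.0038) and rose with 0.59 (edgeR FDR 0.013) (difference -1.35, edgeR FDR 0.0068).

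Several targets that iron raised in PBS mice did not pass the test in DEX mice. Tat, the tyrosine aminotransferase of the fasting response, had 86789, 140304 and 112099 normalized counts in FeSO4/DEX mice and 103192, 87816 and 87952 in NaCl/DEX mice, an LFC of 0.28 (edgeR FDR 0.23), against 2.48 without DEX (difference -2.20, edgeR FDR 2.5e-04). Ddit4, an inhibitor of mTOR, had 1612, 3196 and 2278 and 3251, 2921 and 2911, an LFC of -0.36 (edgeR FDR 0.17) against 3.19 (difference -3.55, edgeR FDR 1.9e-05). Sgk1, a kinase of ion transport, had an LFC of -0.47 (edgeR FDR 0.10) against 1.25 (difference -1.72, edgeR FDR 0.0056), and Dusp1, a MAP kinase phosphatase whose exons overlap those of Ergic1, 0.42 (edgeR FDR 0.27) against 2.37 (difference -1.95, edgeR FDR 0.014). For Tat and Ddit4 the FeSO4/DEX and NaCl/DEX mice overlapped.

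The 2 targets with a positive difference were Irs2, described above, and Arrdc3, an arrestin-domain protein. Irs2 had an LFC of 1.26 without DEX and a difference of 2.79 (edgeR FDR 0.0091). Arrdc3 rose with 1.53 (edgeR FDR 0.0029) in DEX mice, from 372, 232 and 393 to 1078, 1009 and 786 normalized counts, and had -0.58 (edgeR FDR 0.15) without DEX, a difference of 2.11 (edgeR FDR 0.018) that was lost without NaCl/PBS mouse 1 (edgeR FDR 0.053). Per1, Mt1, Mt2 and Pdk4 did not pass the test of the difference, with -0.06, -1.26, -1.44 and -1.63 (edgeR FDR 0.076 or more). The receptor gene Nr3c1 had an LFC of -0.36 (edgeR FDR 0.060) in DEX mice. Of 18 genes of the receptor, its chaperones and steroid handling 4 were higher and 4 lower, with Hsp90aa1 (a GR chaperone) at 0.80 (edgeR FDR 0.0019) and Nr3c2 (the mineralocorticoid receptor) at -1.46 (edgeR FDR 2.8e-05). Srd5a1, a steroid reductase whose exons overlap those of the more abundant Nsun2 on the other strand, had -0.72 (edgeR FDR 0.021), lost without FeSO4/DEX mouse 1 or NaCl/DEX mouse 2 or 3 (edgeR FDR 0.057 to 0.11).

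**Figure D4:**
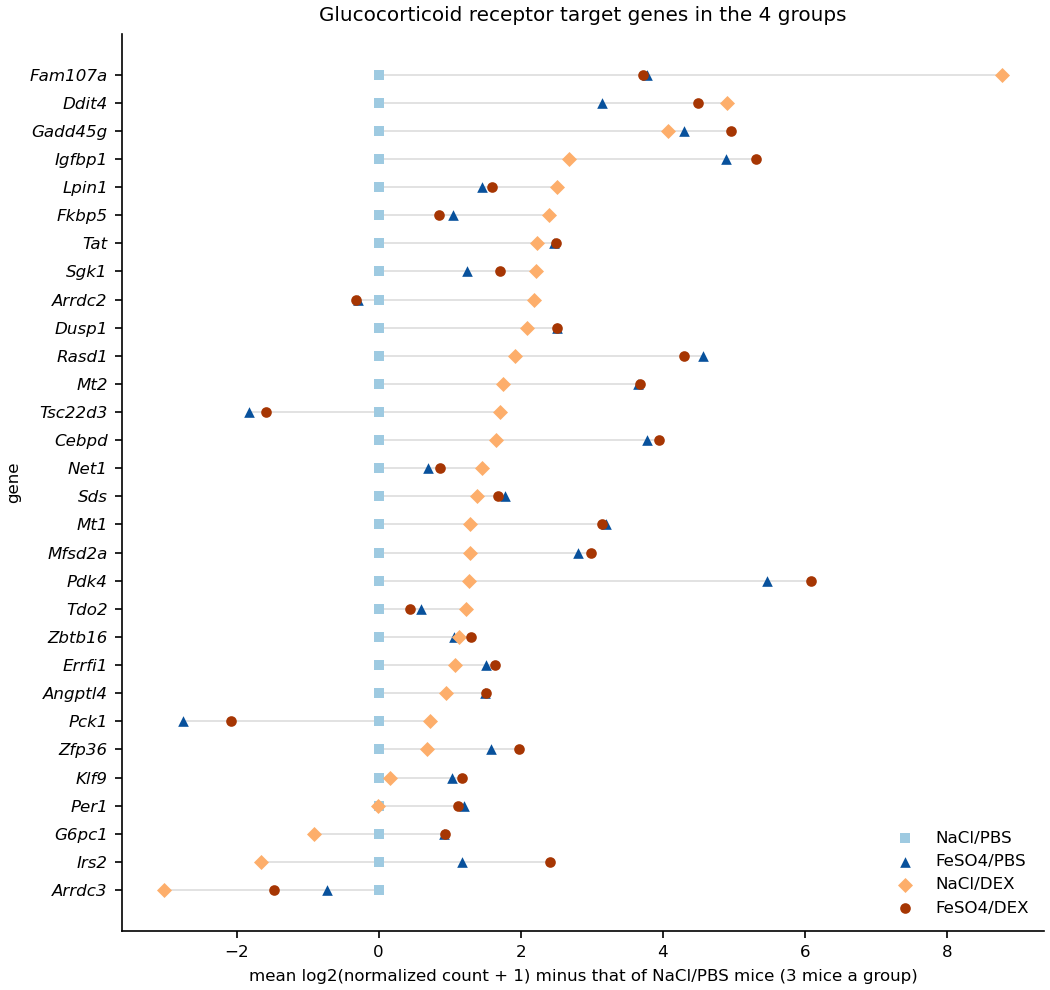
Mean level of 30 GR target genes in the 4 groups, as mean log2(normalized count + 1) minus that of NaCl/PBS mice, with genes in the order of their level in NaCl/DEX mice and 3 mice per group. FeSO4/PBS and FeSO4/DEX mice do not overlap in 2 of 30 genes (9.3% of all genes), while the NaCl/DEX diamond lies above NaCl/PBS in 26 of 30.

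Among the 10 largest positive differences at an edgeR FDR of 0.05 or less, in genes with at least 100 normalized counts in a group and without Gm and Rik genes, Efna1 had an LFC of 2.01 without DEX, with 672, 751 and 380.1 normalized counts in NaCl/PBS and 1873, 2956 and 2452 in FeSO4/PBS mice, and its difference was 4.26 (SE 0.45, edgeR FDR 1.1e-04). Rnf152, a ubiquitin ligase of lysosomes, had 151, 143 and 177 against 147, 149 and 136 in DEX mice, an LFC of 0.12 (edgeR FDR 0.64), and fell without DEX with -2.75 (edgeR FDR 1.0e-07) (difference 2.87, edgeR FDR 4.2e-05). Its direction in DEX mice turned with library size alone. G0s2, an inhibitor of the lipase ATGL whose exons overlap those of Lamb3, rose with 1.504 (edgeR FDR 0.018) in DEX mice and fell with -1.36 (edgeR FDR 0.018) in PBS mice (difference 2.87, edgeR FDR 0.017), the rise being lost without FeSO4/DEX mouse 2 or NaCl/DEX mouse 1 (edgeR FDR 0.069 to 0.095). Neurl3, a ubiquitin ligase, rose with 1.43 (edgeR FDR 0.016) and fell with -1.69 (edgeR FDR 0.0025) (difference 3.11, edgeR FDR 0.0066), the rise being lost without FeSO4/DEX mouse 1 or 2 or NaCl/DEX mouse 3 (edgeR FDR 0.053 to 0.087). Cyp3a41b and Mup-ps16, which have close paralogs, and of which Mup-ps16 shares exons with Gm13775, had differences of 5.02 (edgeR FDR 0.040) and 3.38 (edgeR FDR 0.044) that were lost without FeSO4/DEX mouse 1, FeSO4/PBS mouse 1, 2 or 3, NaCl/DEX mouse 2 or 3 or NaCl/PBS mouse 1 or 3 (edgeR FDR 0.058 to 0.15) and without FeSO4/DEX mouse 1 or 3, FeSO4/PBS mouse 1, 2 or 3, NaCl/DEX mouse 2 or 3 or NaCl/PBS mouse 1 or 3 (edgeR FDR 0.054 to 0.24). The other members of this group were Junb, Il1b, Socs3 and Tnfaip2.

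By the same limits the 10 largest negative differences were led by Fam107a, Greb1, Cdkn1a and Serpina4-ps1. Those of Greb1 (-8.67, edgeR FDR 0.042) and Serpina4-ps1 (-5.17, edgeR FDR 0.023) were lost without FeSO4/DEX mouse 1, 2 or 3, FeSO4/PBS mouse 1 or NaCl/PBS mouse 1 or 3 (edgeR FDR 0.057 to 0.98) and without FeSO4/DEX mouse 3, NaCl/DEX mouse 2 or NaCl/PBS mouse 3 (edgeR FDR 0.055 to 0.064), and that of Greb1 ran from -11.6 to -4.76 with 1 mouse left out, the latter without FeSO4/PBS mouse 1. Plin4, a lipid droplet protein whose exons overlap those of Hdgfl2, had 604, 1112 and 1029 normalized counts in FeSO4/DEX and 909, 1222 and 1160 in NaCl/DEX mice, an LFC of -0.27 (edgeR FDR 0.67) against 4.38 without DEX (difference -4.65, edgeR FDR 0.0016). Phf11c fell with -2.36 (edgeR FDR 0.0012) in DEX mice and rose with 2.11 (edgeR FDR 0.0028) in PBS mice. Akr1b7, an aldose reductase, fell with -2.53 (edgeR FDR 2.0e-04) and rose with 1.25 (edgeR FDR 0.027). Slc10a6, a steroid sulfate transporter, rose in both, by 2.82 with DEX and by 6.80 without. Mdm1 had a difference of -3.97 (edgeR FDR 0.0031).

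**Figure D5:**
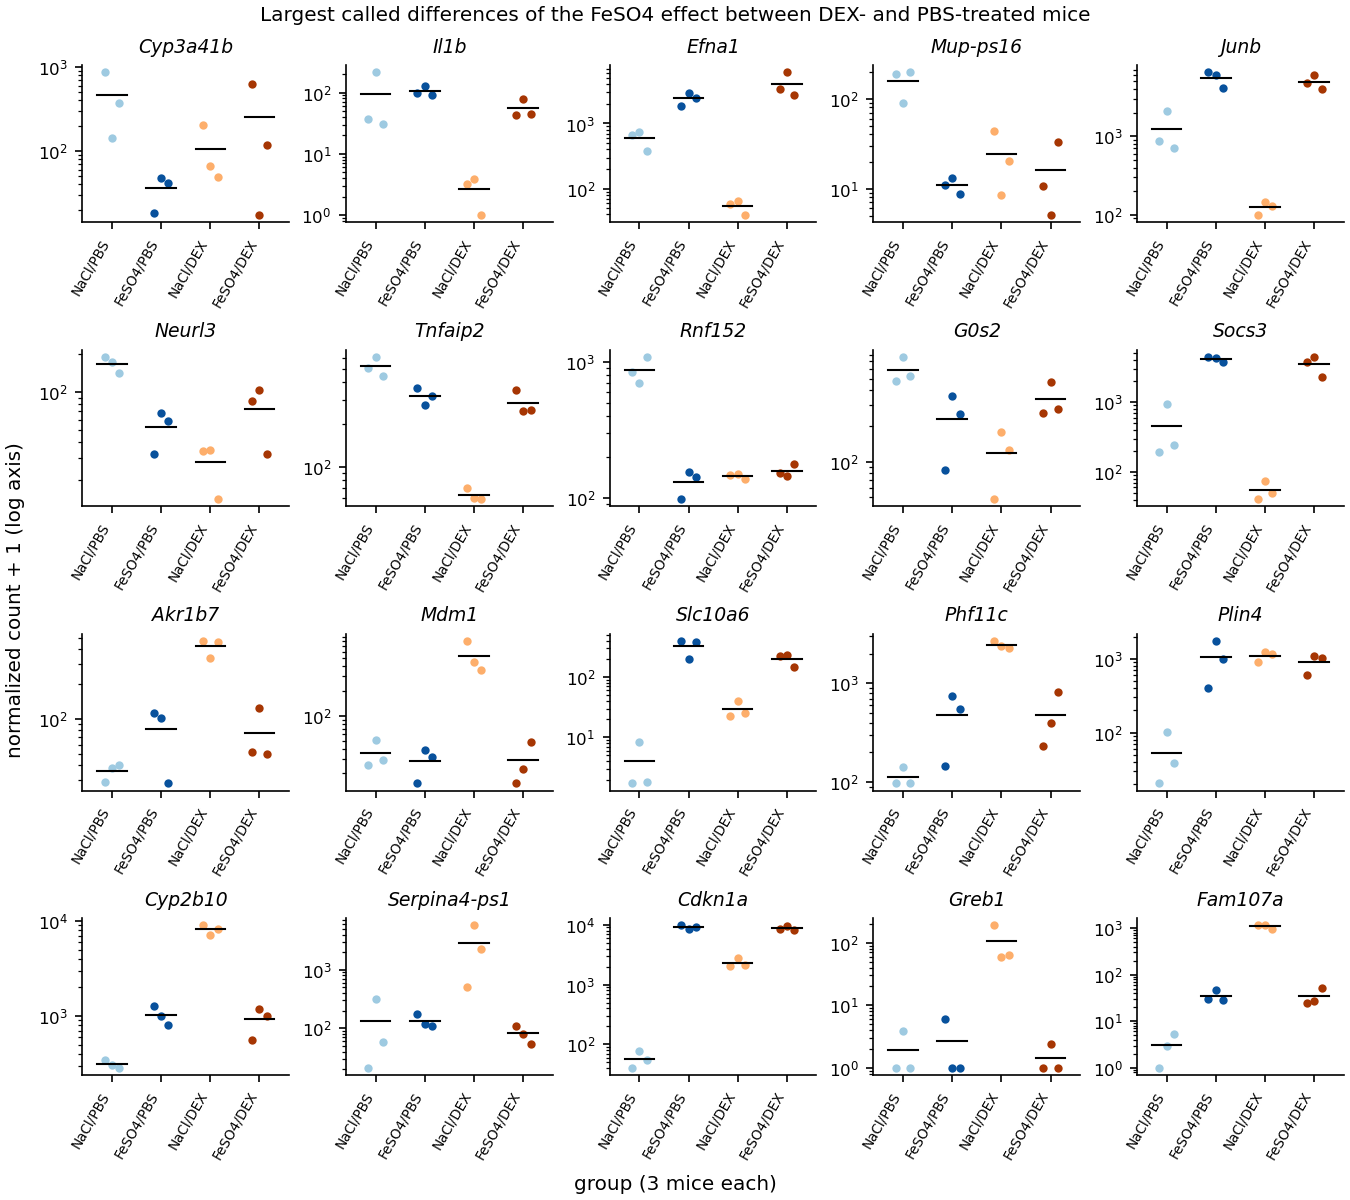
Normalized counts + 1 (log axis) of the 20 genes with the largest called differences of the FeSO4 effect between DEX and PBS mice (edgeR FDR of 0.05 or less, without Gm and Rik genes), by group. Points are mice, 3 per group, and bars are means. For Cdkn1a, Fam107a, Rnf152 and Cyp2b10 the 2 iron groups overlap while the 2 control groups lie apart.

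DEGs of opposite direction were few. Of the 25 such genes, 5 rose with DEX and fell without it and 20 did the reverse. For all 25 the difference passed the test, which is no separate evidence, since the same values gave the opposite calls. The 5 were Ctsw, Rnf186, Tgm1, Neurl3 and G0s2. Ctsw, a protease of cytotoxic lymphocytes whose exons overlap those of Fibp, had 12.6, 6.80 and 7.13 normalized counts against 3.22, 0.940 and 2.01, an LFC of 2.09 (edgeR FDR 0.0094) that was lost without FeSO4/DEX mouse 1 (edgeR FDR 0.055). Tgm1, a transglutaminase, had 1.21 (edgeR FDR 0.0092), lost without FeSO4/DEX mouse 1 (edgeR FDR 0.065), and Rnf186, a ubiquitin ligase, 1.67 (edgeR FDR 0.0065). Among the reverse, beside Fam107a, was Dio2, which activates thyroid hormone, with 0, 0 and 0 reads in FeSO4/DEX mice and 16.1, 32.9 and 13.1 normalized counts in NaCl/DEX mice. It was at least 18.3-fold lower after iron against the floor of 3 reads, and the call of its difference was lost without FeSO4/PBS mouse 2 (edgeR FDR 0.064). The predicted genes Gm19439, Gm15491 and Gm43305 had LFCs of -6.66, -3.13 and -3.03 with DEX, and Gm43305 had 4.61 without. Exons of Gm15491 overlap those of the more abundant Oga and Npm3 on the other strand.

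Some WNT targets around the central vein had differences as well. Of the 10 pericentral markers 3 had a positive and 0 a negative difference (2.99% and 3.2% of all genes). Over the 10 markers the difference ran from -0.64 to 2.65. The 3 were Lgr5, Rnf43 and Tbx3, a receptor, a ubiquitin ligase and a factor of that pathway. Iron lowered them in PBS mice with LFCs of -3.08, -2.38 and -2.39, and had -0.43, -0.25 and -0.11 in DEX mice. The differences were 2.65 (edgeR FDR 0.011), 2.13 (edgeR FDR 0.0015) and 2.28 (edgeR FDR 0.0029). In DEX mice their counts overlapped between the groups, such as 140.2, 117 and 115 against 188, 128 and 129.9 for Rnf43. Among endothelial markers Kdr, a receptor for VEGF, had -0.11 (edgeR FDR 0.80) with DEX and -1.89 (edgeR FDR 1.7e-04) without (difference 1.78, edgeR FDR 0.025), which was lost without FeSO4/DEX mouse 1 or 3, NaCl/DEX mouse 1, 2 or 3 or NaCl/PBS mouse 1 or 3 (edgeR FDR 0.050 to 0.066), and Lyve1 had a difference of -2.13 (edgeR FDR 0.0014).

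Other genes were chosen for the smallest differences in each direction among genes with an LFC beyond 3 in both. Of those that rose, Zpr1 (a zinc finger protein) had 3.30 with and 3.29 without DEX, Pygm (glycogen phosphorylase of muscle) 3.12 and 3.13, Txnip (a thioredoxin inhibitor) 3.18 and 3.12, Pvr (a poliovirus receptor) 3.05 and 3.11, and Casz1 (a zinc finger factor) 3.90 and 3.84. Txnip rose from 1603, 1746 and 1756 to 10376, 19308 and 16450 normalized counts in DEX mice, with no overlap. Its difference of 0.05 (SE 0.49, edgeR FDR 0.97) did not pass the test, which does not show that the effects are equal. The differences were wider among the falls, where Cyp7a1 had -5.66 and -6.01, Kcna2 -5.02 and -5.64, Tppp (a tubulin-binding protein) -3.27 and -3.73, Ms4a6c -3.93 and -3.01, and the pseudogene Cyp2d37-ps -3.06 and -3.44. Hmox1 had 6.64 and 6.02 (difference 0.62, SE 0.30, edgeR FDR 0.26).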

How the data were processed

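Livers of 12 mice, 3 in each of 4 groups, were analysed by bulk RNAseq. According to the paper and the submitters' processing notes, stranded mRNA libraries were sequenced as single-end reads, checked with FastQC and mapped to mm39 with STAR 2.7.10b. For each Ensembl gene, the authors deposited raw read counts without normalization. Which strand setting the counting used is not given in the sources used here, so reads of overlapping genes on opposite strands cannot be told apart. Such overlaps are not named for every gene above. Exons of Mat2a, Csf1r, Tbx3 and Celsr1 also overlap those of Ggcx, Hmgxb3, Tbx3os1 and Trmu, in that order.

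Groups came from the sample labels. From the counts, 1 edgeR 4.0.16 quasi-likelihood model (R 4.3.3) with a mean per group was fitted to all 12 libraries, after edgeR's filter on low counts and TMM scaling. TMM factors were 0.87 to 0.94 in FeSO4/DEX and 1.02 to 1.06 in NaCl/DEX mice. The biological coefficient of variation was 0.169. Contrasts were FeSO4/DEX against NaCl/DEX, FeSO4/PBS against NaCl/PBS, and their difference, with Benjamini-Hochberg adjustment over all tested genes. LFCs used a prior count of 0.125. Each SE was derived from the edgeR test, as the absolute LFC divided by the square root of its F statistic. Where a group had no reads, folds are bounds against 3 reads over that group, and with 1 to 3 reads ratios have exact 95% intervals. Libraries held 16335651 to 23827340 reads on genes, and these intervals cover counting error only. On simulated data with 200 genes changed in both backgrounds by an LFC of 2, the fit over 13577 genes recovered 182 of 193 tested in DEX mice beside 11 false calls, and called 0 differences. With the change in DEX mice alone, the test of the difference over 13534 genes recovered 160 of 195 changed genes beside 7 false calls. The simulations had equal numbers of rises and falls and far fewer changed genes than the mice, and took each gene's spread from the trend. They therefore do not give the error rate in these data. Further tools were Python 3.11.15, pandas 2.3.3, numpy 2.4.6, scipy 1.17.1 and matplotlib 3.10.9.

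Symbols, positions and promoters (250 bases upstream of the Ensembl canonical start) came from GENCODE vM39 on GRCm39, with 54749 of 55414 genes matched. The authors' annotation release may differ. The comparison, the 49 gene lists and the alternatives were chosen with earlier results of these data known. Named were the 12 largest rises and falls with at least 100 normalized counts in the higher group and no overlap of mice, the 10 largest called differences in each direction, up to 4 called members per list, genes with opposite DEG calls (5 per direction), the called genes among the 50 most abundant, 5 genes per direction with like effects, and 23 genes fixed by name, without Gm and Rik genes in the rankings of size. Another 13 genes (Lgr5, Rnf43, Tbx3, Kdr, Nfkbia, Dusp1, Dusp14, Bcl2l1, Lcn2, Nr1d1, Ccl2, Lpin1 and Arrdc3) were chosen after their values were seen. Some genes that met these rules are not reported here.

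Alternatives were DESeq2 1.42.0, its size factors, scaling by library size alone, the replicate number as a block, the libraries of a comparison alone, either no filter on low counts or a minimum of 10 counts in each library, a test against an LFC of 1, no minimum LFC, and each mouse left out. A minimum LFC of 1 for the difference was added after seeing the data. Same-numbered DEX mice did not deviate together (r 0.0046 to 0.0119), so replicate numbers were not taken as pairs.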

Additional observations from a re-analysis of the deposited data

Results flagged for a closer look

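For 74 of the genes named, the FeSO4 effect in DEX mice differed from that in PBS mice by the test of the difference itself (edgeR FDR of 0.05 or less). The values are differences of LFCs, DEX minus PBS, and some of the genes were chosen for them.

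The effect was higher with DEX for Cyp3a41b (5.02), Il1b (4.70), Efna1 (4.26), Ctsw (3.40), Mup-ps16 (3.38), Junb (3.13), Neurl3 (3.11), Tnfaip2 (2.92), Rnf152 (2.87), G0s2 (2.87), Socs3 (2.82), Irs2 (2.79), Rnf186 (2.78), Id2 (2.68), Lgr5 (2.65), Atoh8 (2.51), Nr1d1 (2.49), Osgin1 (2.46), Tbx3 (2.28), Tgm1 (2.27), Rnf43 (2.13), Arrdc3 (2.11), Gadd45a (2.09), F3 (1.93), Relb (1.89), Kdr (1.78), Srebf1 (1.70), Id3 (1.69), Plk2 (1.68) and Dbp (1.66). The call of Relb was lost without FeSO4/DEX mouse 1, FeSO4/PBS mouse 3 or NaCl/DEX mouse 1 or 3 (edgeR FDR 0.052 to 0.066), and that of F3 without NaCl/DEX mouse 1 or 3 (edgeR FDR 0.051 to 0.058).

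The effect was lower with DEX for Dio2 (-11.98), Gm19439 (-9.39), Fam107a (-9.08), Greb1 (-8.67), Gm43305 (-7.64), Gm15491 (-6.23), Cdkn1a (-5.44), Serpina4-ps1 (-5.17), Cyp2b10 (-4.86), Plin4 (-4.65), Phf11c (-4.48), Slc10a6 (-3.98), Mdm1 (-3.97), Akr1b7 (-3.79), Ddit4 (-3.55), Dusp14 (-3.08), Lcn2 (-2.84), Dusp8 (-2.83), Bcl2l1 (-2.67), Fkbp5 (-2.43), Lpin1 (-2.34), Thbd (-2.30), Tat (-2.20), Lyve1 (-2.13), Dact1 (-2.11), Alas1 (-2.01), Dusp1 (-1.95), Sgk1 (-1.72), Tfrc (-1.53), Celsr1 (-1.46), Tsc22d3 (-1.44), Nop58 (-1.41), Tdo2 (-1.35), Got1 (-1.31), Usp18 (-1.27), Rrp12 (-1.07), Aifm2 (-1.002), Foxo3 (-1.0), Tnfrsf12a (-0.97), Nfkbia (-0.96), Slc39a14 (-0.91), mt-Nd6 (-0.88), Utp4 (-0.78) and Pnpla2 (-0.78). For Dio2, Greb1, Gm19439 and Gm15491, where a group had at most 3 reads, the fitted value depends on the prior count. The call of Celsr1 was lost without FeSO4/DEX mouse 1 or 2, FeSO4/PBS mouse 2 or 3, NaCl/DEX mouse 2 or 3 or NaCl/PBS mouse 1 or 3 (edgeR FDR 0.053 to 0.10). For Slc39a14 this was so without FeSO4/DEX mouse 1 or 3, FeSO4/PBS mouse 2 or 3, NaCl/DEX mouse 1 or 3 or NaCl/PBS mouse 1 or 3 (edgeR FDR 0.062 to 0.11). The call of Foxo3 was lost without FeSO4/DEX mouse 1, NaCl/DEX mouse 1 or 3 or NaCl/PBS mouse 1 or 2 (edgeR FDR 0.051 to 0.070). For Got1 this was so without FeSO4/DEX mouse 1 or 3, FeSO4/PBS mouse 2, NaCl/DEX mouse 1 or 2 or NaCl/PBS mouse 1 or 2 (edgeR FDR 0.058 to 0.097). The call of Pnpla2 was lost without FeSO4/DEX mouse 1 or 3, FeSO4/PBS mouse 2 or 3, NaCl/DEX mouse 2 or 3 or NaCl/PBS mouse 1 or 3 (edgeR FDR 0.060 to 0.10). For Utp4 this was so without FeSO4/DEX mouse 1 or 3, NaCl/DEX mouse 1 or 2 or NaCl/PBS mouse 1 or 3 (edgeR FDR 0.055 to 0.094). The call of Tnfrsf12a was lost without FeSO4/DEX mouse 3, NaCl/DEX mouse 2 or NaCl/PBS mouse 1 or 3 (edgeR FDR 0.060 to 0.085). For mt-Nd6 this was so without FeSO4/DEX mouse 1, FeSO4/PBS mouse 2, NaCl/DEX mouse 1 or 3 or NaCl/PBS mouse 1 or 2 (edgeR FDR 0.061 to 0.091).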

How the results depend on the processing

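In DEX mice, 1474 genes were higher and 1362 lower as reported. These became 949 and 894 with at least 10 counts in every library (fewer genes tested), 766 and 470 when tested against an LFC of 1, and 3103 and 2902 with no minimum LFC, and 1323 to 1460 and 1250 to 1347 with 1 mouse left out. In PBS mice the counts of 1730 and 2040 became 986 and 935 in the test against an LFC of 1, 3770 and 3783 with no minimum LFC, and 3073 lower genes with library size alone. With 1 mouse left out they ran from 1642 to 1818 and from 1932 to 2079. The difference, called in 414 and 443 genes, depended more on the setting. There were 562 higher and 747 lower with DESeq2, 575 and 327 with library size alone (which turned the balance), 683 and 776 with no filter on low counts, 21 and 51 in the test against an LFC of 1, 277 lower with an LFC beyond 1, and 229 to 408 higher and 308 to 628 lower with 1 mouse left out. Where the number of mice was not changed, the cause was not tested. The slope of 0.729 was 0.7012 with at least 10 counts, 0.4356 with no filter and 0.6883 to 0.7484 with 1 mouse left out.

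With the replicate block, 1459 and 1322 genes were called in DEX mice, 1700 and 2021 in PBS mice, and 340 and 389 for the difference, with a slope of 0.7321. Of the genes named, the block ended the difference calls of Got1 and mt-Nd6 (edgeR FDR 0.057 and 0.060).

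With library size alone, 34 of the 49 list medians moved by more than the SD of the FeSO4/DEX mice and 1 other turned. Directions turned for values near 0. The median of the heat shock list was 0.028 without NaCl/DEX mouse 3 and ran from -0.117 to 0.028 with 1 mouse left out. That of the clock list was -0.091 with at least 10 counts, -0.153 with library size alone, and -0.066 and -0.081 without NaCl/DEX mouse 1 or 2 (range to 0.051), and that of the glycolysis list was -0.017 without FeSO4/DEX mouse 1 (range to 0.326). In DEX mice, with the other end of the range over mice left out in brackets, Cyp3a41b was at -0.608 without FeSO4/DEX mouse 1 (2.157), Mup-ps16 at 0.211 without NaCl/DEX mouse 1 (-1.67), Rnf152 at -0.073 with library size alone and -0.002 without FeSO4/DEX mouse 3 (0.151), Lgr5 at 0.156 without NaCl/DEX mouse 1 (-0.667), Tbx3 at 0.061 without NaCl/DEX mouse 2 (-0.346), Kdr at 0.095 without FeSO4/DEX mouse 2 (-0.471), and Bcl2l1 at -0.134 with library size alone and -0.060 without FeSO4/DEX mouse 3 (0.104). With their 1-mouse omissions, the genes named gave 4237 values under the alternatives, of which 4020 kept direction and side of the threshold, 189 fell short of it, 19 newly passed it and 9 turned.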
